A study of Homo sapiens with 6 samples.

Results

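The genes examined here are known as hosts of small nucleolar RNAs (snoRNAs), mostly carried in introns. These genes yield a spliced host transcript that mostly does not encode protein. They were chosen by a rule on gene names: every symbol of the count table made of SNHG and a number, except SNHG14, together with GAS5, ZFAS1 and DANCR. This gave 30 of 59653 gene symbols. The cells were PA1, an established human ovarian teratocarcinoma line labelled wildtype, and all 6 libraries came from it. In the control group 3 libraries came from cells transfected with a negative control small interfering RNA (siRNA), and in the SOX2 siRNA group 3 came from cells transfected with siRNA against the transcription factor SOX2. The labels name 2 SOX2 siRNAs without saying whether they were combined. Transfection took place in adherent culture, and 24 h later the cells of both groups went onto a poly-HEMA coating, which keeps them from attaching, and RNA was taken after a further 72 h. The labels do not say whether replicates were separate cultures, so p-values measure the spread between these libraries, which may be technical.

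A snoRNA guides the chemical modification of ribosomal and spliceosomal RNA. Box C/D snoRNAs guide 2′-O-methylation and H/ACA snoRNAs guide pseudouridylation, while the related scaRNAs act in Cajal bodies. In human cells most snoRNAs are cut out of introns, and in the genes of this family the intron carries the stable product while the spliced transcript often contains short reading frames and is broken down by nonsense-mediated decay (NMD) when it is translated. Many of these genes also begin with a terminal oligopyrimidine (TOP) tract, a C followed by an unbroken stretch of C and T, which they share with ribosomal protein genes and which ties translation to growth signals. GAS5 was named for its rise in growth-arrested cells, and DANCR for restraining differentiation.

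Total counts ranged from 25152313 to 32753184 per library, and 3 counts corresponded to 0.0909 to 0.120 CPM, the count scaled to library size with TMM factors. SOX2 itself was counted 8093, 6647 and 7396 times in the controls, by replicate number, against 1564, 1776 and 1513 with SOX2 siRNA, or -2.28 on the log2 scale (SE 0.0437; adjusted p = 5.97e-16). Every adjusted p given is a Benjamini-Hochberg value over all tested genes from the quasi-likelihood test of edgeR. Of 9 genes expected in this pluripotent line, POU5F1, LIN28A, LIN28B, SALL4, TERF1 and DNMT3B stood above 50 CPM in every library, whereas DPPA4 and L1TD1 did not exceed 3.08 and 2.67 CPM. Among 11 markers of blood, endothelium, liver and squamous epithelium, KRT14 had no count and PTPRC at most 3, while of the endothelial genes PECAM1 was at 43.1 to 65.7 CPM, CDH5 at 4.79 to 9.13 CPM and VWF at 1.73 to 2.99 CPM. All 6 libraries came from the PA1 line, and which cells gave these counts was not tested. Mitochondrial transcripts took 6.47% to 7.08% of counts.

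The annotated starts of the 6 hosts called lower are shown first, with those of 4 hosts that were not called. The start decides whether a transcript carries a TOP tract. Each line gives the first 30 bases from the RefSeq start (GRCh38.p14), 5′ to 3′, and capitals mark an opening tract of at least 5 bases that begins with C and holds only C and T.
SNHG4, chr5:139274101-139274130, plus strand: CCCTTTCCCCTCCggcctctgccggtgctg
SNHG5, chr6:85678704-85678733, minus strand: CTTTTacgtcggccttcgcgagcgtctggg
ZFAS1, chr20:49278642-49278671, plus strand: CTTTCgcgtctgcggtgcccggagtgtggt
DANCR, chr4:52712394-52712423, plus strand: gcccttgcccagagtcttcccgggattggc
SNHG26, chr7:22854240-22854269, plus strand: ctccgcagtgccctcccttttcggccgcgg
SNHG22, chr18:49814023-49814052, plus strand: agaggcttgggccgccgagctggacccgga
SNHG12, chr1:28581844-28581873, minus strand: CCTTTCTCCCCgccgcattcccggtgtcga
SNHG19, chr16:2155329-2155358, minus strand: CTTTTCggggtcgagtccgagggggaagag
SNHG1, chr11:62855856-62855885, minus strand: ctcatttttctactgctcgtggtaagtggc
GAS5, chr1:173869016-173869045, minus strand: agatgtgtttattttggagcctacaccagc

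Starts were matched for 26 of the 30 hosts. SNHG6, SNHG9, SNHG15 and SNHG25 had no entry. A tract opened 7 of the 26 (26.9%), against 4.04% of 27305 promoters in the RefSeq table, 5.28% of those of tested genes and 68.3% of 63 ribosomal protein genes. The 7 hosts were SNHG4, SNHG5, SNHG12, SNHG18, SNHG19, SNHG32 and ZFAS1. RefSeq names 1 start per gene, and other annotated starts differed. Among GENCODE 29 transcripts a tract opened 6 of 29 for GAS5, 6 of 30 for SNHG29, 3 of 5 for SNHG6 and 0 of 5 for DANCR. It also opened 2 of 2 for SNHG25, 2 of 8 for SNHG16 and 1 of 3 for SNHG3. For SNHG8, SNHG11 and SNHG1 it opened 1 of 5, 1 of 15 and 1 of 25. Among the other hosts without one at a RefSeq start, a tract opened no transcript. For hosts with a RefSeq tract it opened 4 of 9 for SNHG4, 3 of 23 for SNHG5 and 3 of 10 for ZFAS1. It opened 4 of 17 for SNHG12, 1 of 2 for SNHG18, 1 of 1 for SNHG19 and 0 of 11 for SNHG32. Which start PA1 cells used was not measured. The hexamer ACAATG or its reverse complement CATTGT, the core bound by SOX proteins, lay within the 300 bases around the start of 1 of the 26 hosts, SNHG32 (3.85%), beside 6.23% of the promoters of tested genes and 10.97% of those in the whole table.

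After SOX2 siRNA, 6 of the 27 tested host genes (22.2%) were called lower. Among all tested genes, 28.2% were called in either direction and 13.4% were called lower. DANCR, SNHG26, ZFAS1, SNHG5, SNHG4 and SNHG22 passed the test and were all lower, by between 9.01% and 37.5%. No host passed it as higher. None of the 27 tested hosts changed 2-fold, called or not. In the whole table, 557 of 17592 tested genes were called with a change of at least 2-fold. Genes there that changed 2-fold without a call were not counted. In RNA from whole cultures, fewer cells of one kind and less RNA per cell cannot be told apart.

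All 30 hosts had at least 1 count, and 27 passed the filter on low counts. SNHG18, SNHG27 and SNHG28 did not, with at most 2, 3 and 1 counts in any library. The 6 calls were 22.2% of the 27 tested hosts, beside 28.2% of the 17592 genes tested in the whole table. Lower calls alone were also 22.2% of the hosts, beside 13.4% of tested genes, and higher calls were 0 of 27 beside 14.8%. By unadjusted p of the edgeR test, 9 hosts (33.3%) lay under 0.05, beside 37.7% of tested genes. The median log2 fold change of the tested hosts was -0.0084, beside -0.00085 for tested genes as a whole, and 16 hosts had a negative and 11 a positive value. The median size of the change, regardless of sign, was 0.10 on the log2 scale for hosts and 0.15 for tested genes as a whole. For 10 hosts the CPM of control and SOX2 siRNA libraries were fully separate (37.0%), 9 of them lower and 1 higher, beside 41.8% of tested genes.

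**Figure D1:**
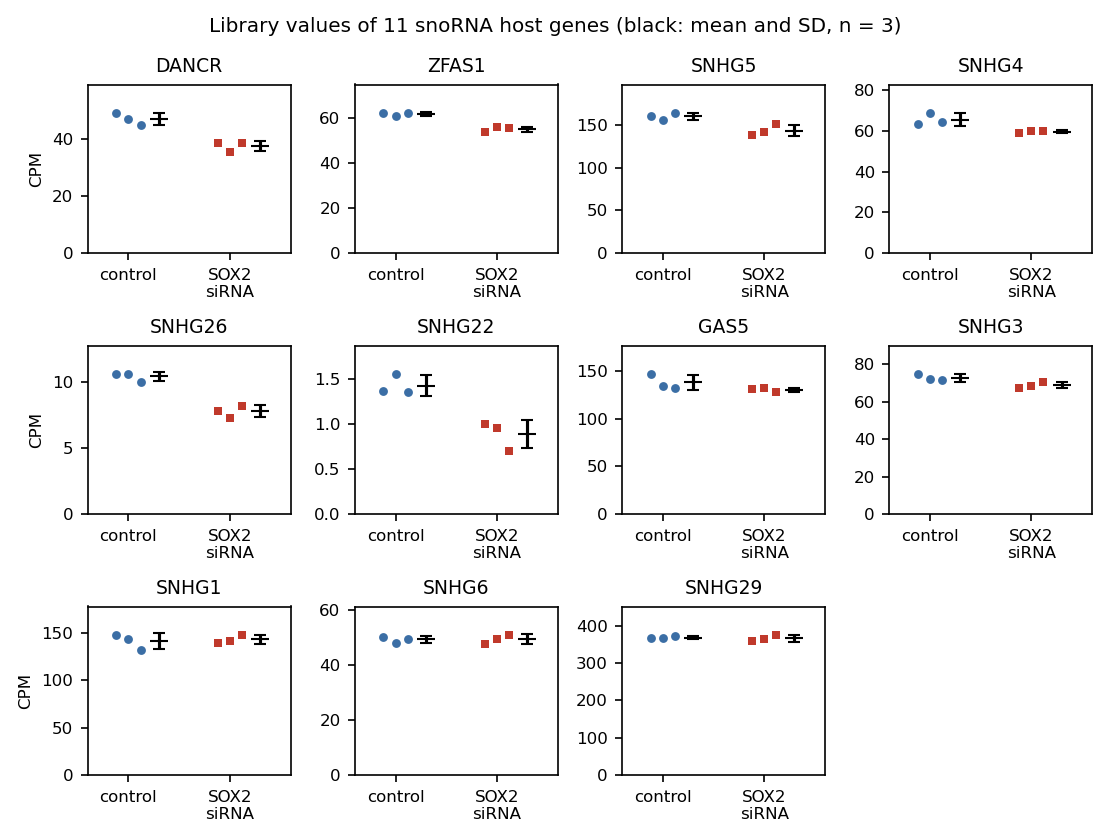
CPM of 11 host genes in each library, control siRNA (circles) and SOX2 siRNA (squares), with the mean and SD of 3 libraries in black and each axis starting at 0. The first 6 panels hold the called hosts, such as DANCR at 45.1 to 49.4 CPM in control and 35.6 to 38.7 CPM after SOX2 siRNA; the points of SNHG1, SNHG6 and SNHG29 overlap.

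DANCR, which holds the H/ACA snoRNA SNORA26, had the smallest p of the family. It lies at chr4:52712404-52720351 on the plus strand (GRCh38, GENCODE 29). DANCR was counted 1631, 1185 and 1303 times in the controls, by replicate number, against 1164, 1151 and 1156 with SOX2 siRNA, or 49.4, 47.3 and 45.1 CPM against 38.6, 35.6 and 38.7 CPM. Each SOX2 siRNA library lay below each control library. The mean went from 47.3 ± 2.17 to 37.6 ± 1.75 CPM (SD, n = 3), or -0.33 on the log2 scale (SE 0.0518; adjusted p by edgeR 1.07e-04). In percent the fall was 20.5, with a 95% interval for the change from -26.3% to -14.2%.

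SNHG26, the host of the box C/D snoRNA SNORD93 at chr7:22854178-22861579, was a weakly expressed gene with the second smallest adjusted p. Its levels were 10.7, 10.7 and 10.03 CPM in the controls, by replicate number, and 7.85, 7.33 and 8.23 CPM with SOX2 siRNA, without overlap. The log2 fold change was -0.42 (SE 0.0847; adjusted p by edgeR 0.00107), a fall of 25.4% with an interval from -34.1% to -15.5%. With small RNA genes left aside, no exon of SNHG26 overlaps that of another gene in GENCODE 29.

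ZFAS1 is transcribed away from the 5′ end of ZNFX1, a gene for an RNA helicase-like protein, and holds SNORD12, SNORD12B and SNORD12C. It lies at chr20:49278178-49295738. ZFAS1 was counted 2046, 1519 and 1798 times in the controls, by replicate number, against 1616, 1799 and 1653 with SOX2 siRNA. Scaled by library size these were 62.0, 60.6 and 62.2 CPM against 53.5, 55.6 and 55.3 CPM, and the groups did not overlap. The mean went from 61.6 ± 0.850 to 54.8 ± 1.14 CPM (SD, n = 3), or -0.17 on the log2 scale (SE 0.0419; adjusted p by edgeR 0.00581).

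SNHG5, which carries SNORD50A and SNORD50B and has the tract shown above at its RefSeq start, lies at chr6:85660950-85678748 on the minus strand. It was counted 5293, 3905 and 4761 times in the controls, by replicate number, against 4177, 4579 and 4509 with SOX2 siRNA. In CPM the values were 160.4, 155.9 and 164.7 against 138.4, 141.6 and 150.9, again without overlap. The log2 fold change was -0.16 (SE 0.0403; adjusted p by edgeR 0.00663), a fall of 10.4% with an interval from -15.6% to -4.97%. The calls of DANCR, SNHG26, ZFAS1 and SNHG5 held under all 15 alternative settings.

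SNHG4 and SNHG22 passed the threshold by less. SNHG4, host of SNORA74A at chr5:139274102-139284899, was at 63.3, 68.97 and 64.3 CPM in the controls, by replicate number, and 58.7, 60.2 and 59.7 CPM with SOX2 siRNA (log2 fold change -0.14, SE 0.0445; adjusted p by edgeR 0.0296). Its groups did not overlap, but the call was lost by leaving out any 1 library other than control replicate 1, and under DESeq2. The adjusted p ranged from 0.0126 to 0.134 over the alternatives and was highest without control replicate 2. Exons of SNHG4 overlap those of MATR3, which encodes a nuclear matrix protein, by 626 bases on the same strand. MATR3 was at 850 ± 36.7 and 835 ± 38.2 CPM. Whether reads were split between them was not tested.

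SNHG22, host of the scaRNA SCARNA17 at chr18:49814023-49851059, had the largest fall of the 6 and the fewest counts. It was counted 45, 39 and 39 times in the controls, by replicate number, against 30, 31 and 21 with SOX2 siRNA, and the groups did not overlap in CPM. The mean went from 1.42 ± 0.116 to 0.885 ± 0.159 CPM (SD, n = 3), or -0.68 on the log2 scale (SE 0.228; adjusted p by edgeR 0.0347). The interval for the change ran from -55.2% to -12.6%. The call was lost without any 1 library other than SOX2 siRNA replicate 1, under DESeq2 and with no filter on low counts, and the adjusted p ranged from 0.0214 to 0.160. SNHG22 overlaps 229 exonic bases of MYO5B, a gene for an unconventional myosin on the opposite strand, and MYO5B fell from 6.92 ± 0.302 to 3.80 ± 0.545 CPM (log2 fold change -0.86; adjusted p by edgeR 3.02e-05). The labels do not give the strand used in counting, and the part of MYO5B reads in the SNHG22 value was not tested.

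**Figure D2:**
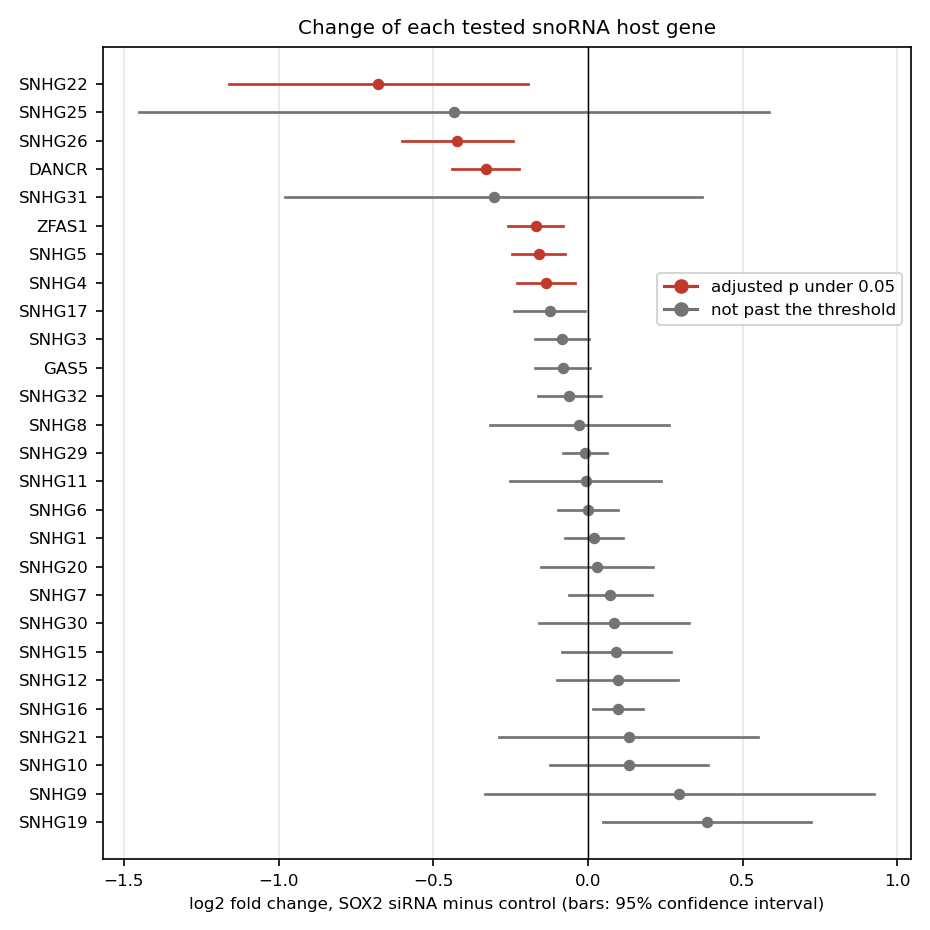
Log2 fold change of the 27 tested host genes (SOX2 siRNA minus control), with 95% confidence intervals as bars; red marks an adjusted p under 0.05 and grey the rest. The red points, from -0.68 for SNHG22 to -0.14 for SNHG4, lie left of 0, and the widest bars belong to weakly expressed hosts such as SNHG25.

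The best known member of the family, GAS5, did not pass the test. GAS5 carries 10 box C/D snoRNAs in the RefSeq annotation and lies at chr1:173863900-173868882 on the minus strand. It was counted 4857, 3354 and 3832 times in the controls, by replicate number, against 3955, 4271 and 3823 with SOX2 siRNA, or 147, 134 and 133 CPM against 131, 132 and 128 CPM. The SOX2 siRNA libraries lay just below the controls, of which replicate 1 stood highest. The log2 fold change was -0.08 (SE 0.0425; adjusted p by edgeR 0.174), and the interval for the change ran from -11.2% to 0.571%. Without control replicate 1 the log2 fold change was -0.03 (adjusted p by edgeR 0.603).

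SNHG3 had a change of like size. This host of SNORA73A and SNORA73B, whose start lies beside that of the chromatin regulator gene RCC1, was at 75.1, 72.0 and 71.4 CPM in the controls, by replicate number, and 67.5, 68.3 and 70.6 CPM with SOX2 siRNA. The log2 fold change was -0.08 (SE 0.0416; adjusted p by edgeR 0.156), with an interval from -11.2% to 0.324%, although the libraries did not overlap. Exons of SNHG3 and RCC1 share 242 bases on the same strand, and RCC1 had a log2 fold change of 0.06 (adjusted p by edgeR 0.367).

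SNHG1, SNHG6 and SNHG29 are abundant hosts of box C/D snoRNAs whose libraries overlapped between groups. SNHG1 was at 147, 144 and 131 CPM in the controls, by replicate number, and 139, 141 and 148 CPM with SOX2 siRNA (log2 fold change 0.02, 95% interval for the change -4.95% to 8.15%). SNHG6 was at 50.5, 48.2 and 49.7 CPM against 47.6, 49.6 and 51.2 CPM, with an interval from -6.53% to 6.90%. SNHG29 was at 368, 367 and 373 CPM against 359, 365 and 377 CPM, with an interval from -5.33% to 4.40%. The intervals of all 3 hosts lay within 10% of the control level.

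The remaining 16 tested hosts did not pass the threshold either. SNHG16, host of SNORD1A, SNORD1B and SNORD1C, was the single host whose SOX2 siRNA libraries all lay above the controls, at 143, 139 and 146 CPM against 136, 135 and 129 CPM (log2 fold change 0.10, SE 0.0379; adjusted p by edgeR 0.064). Over the alternatives its adjusted p ranged from 0.0494, without control replicate 1, to 0.258, without control replicate 3. SNHG19, host of SNORD60, had the highest log2 fold change of the family at 0.38 (SE 0.158; adjusted p by edgeR 0.0842), from 4.57, 2.83 and 3.91 CPM in the controls to 4.34, 5.10 and 5.46 CPM with SOX2 siRNA. It was called without control replicate 1 (adjusted p = 0.0277), without SOX2 siRNA replicate 1 (0.0467) and with no filter on low counts (0.0332). Without control replicate 2 the log2 fold change was 0.22 (adjusted p by edgeR 0.313), and the other 11 alternatives did not call it either. SNHG17 had a log2 fold change of -0.12 (SE 0.0545; adjusted p by edgeR 0.104). Its adjusted p ranged from 0.030, without control replicate 2, to 0.324, without control replicate 1.

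Of the 21 hosts that were not called, 17 had a 95% interval inside a 1.5-fold change in either direction. The other 4 were SNHG9, SNHG19, SNHG25 and SNHG31. SNHG25, with 4 to 23 counts per library, had an interval from -63.4% to 50.2%, and SNHG9 one from -20.6% to 89.8%. SNHG7, SNHG8, SNHG10, SNHG11, SNHG12, SNHG15, SNHG20, SNHG21, SNHG30 and SNHG32 had log2 fold changes between -0.06 and 0.13. For the 10 hosts with at least 1000 counts in every library, the coefficient of variation of CPM was 0.936% to 5.89% in control and 1.22% to 4.65% in SOX2 siRNA libraries, and for the 5 tested hosts under 100 counts it ran from 5.56%, for SNHG31 with SOX2 siRNA, to 54.9%, for SNHG25 with SOX2 siRNA.

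Levels of different hosts were compared as CPM per kb of merged annotated exons, a scale that depends on the annotated isoforms. SNHG29 stood highest in control libraries at 98.2 ± 0.919, followed by SNHG5 at 57.1 ± 1.57 (SD, n = 3). SNHG6, GAS5 and SNHG1 came next at 39.7 ± 0.939, 38.0 ± 2.22 and 37.5 ± 2.21, and these neighbours did not differ beyond their spread. ZFAS1 and SNHG16 followed at 27.5 ± 0.379 and 24.8 ± 0.764, then SNHG32, DANCR and SNHG3 at 22.1 ± 0.649, 20.7 ± 0.951 and 17.8 ± 0.486. SNHG26 at 3.98 ± 0.138 and SNHG22 at 0.549 ± 0.0447 lay far down this order, so the called hosts spanned abundant and scarce members. The hosts together made up 0.1394% to 0.1461% of counts in control and 0.1357% to 0.1392% in SOX2 siRNA libraries, which did not overlap by a narrow margin. SNHG29 alone supplied 26.0% of the summed control CPM. After TMM scaling their summed level was 1418 ± 27.9 CPM in control and 1375 ± 26.6 CPM after SOX2 siRNA (SD, n = 3), with ranges that overlapped.

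**Figure D3:**
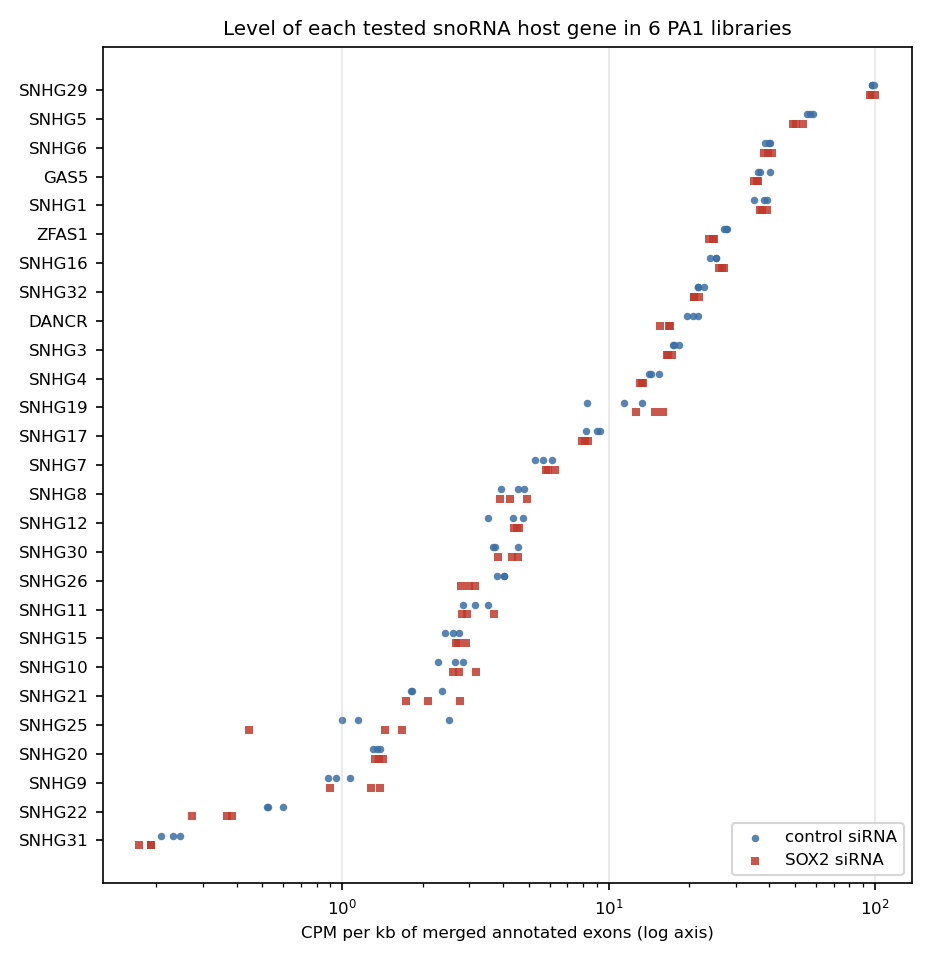
CPM per kb of merged annotated exons, on a log axis, for the 27 tested host genes in each control siRNA (circles) and SOX2 siRNA (squares) library. Levels run from SNHG29 at the top, with a control mean of 98.2, to SNHG31 at the bottom, with 0.228, and the order of the hosts covers a far wider range than any difference between groups.

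The snoRNAs themselves were hardly covered. They are short and carry no poly(A) tail, whereas the kit was made for messenger RNA. RefSeq places 66 snoRNA or scaRNA genes within the spans of 29 of the 30 hosts, without regard to strand or intron. Of these, 38 are named as box C/D, 21 as H/ACA and 4 as scaRNA. SNHG27 held none. Of the 52 found in the count table, 37 had no count in any library and 3 passed the filter. These were SNORD22 in SNHG1, SNORA73B in SNHG3 and SNORA71B in SNHG17, with log2 fold changes of -0.17, -0.60 and 0.31 and edgeR adjusted p-values of 0.596, 0.145 and 0.517. SNORD22 was counted 51, 31 and 47 times in the controls, by replicate number, against 37, 41 and 43 with SOX2 siRNA. All snoRNA and scaRNA symbols of the table together had 506 to 698 counts in control and 342 to 387 in SOX2 siRNA libraries. Part of that difference lay in SNORD3D, a U3 copy with its own promoter and no host, at 212, 165 and 140 against 48, 55 and 47 counts. Its log2 fold change was -1.87 (SE 0.156; adjusted p by edgeR 6.37e-08). Without the SNORD3 symbols the totals were 424, 309 and 332 in the controls and 300, 302 and 267 with SOX2 siRNA, still without overlap. These totals are raw counts, not scaled to library size. U3 copies are near-identical, so the counts of a single copy are uncertain. The part that carried-over small RNA had in the host values was not tested.

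With a tract at the RefSeq start, 3 of 6 tested hosts were called, namely ZFAS1, SNHG5 and SNHG4, and without one 3 of 17, namely DANCR, SNHG26 and SNHG22. Log2 fold changes ranged from -0.17 to 0.38 in the first group (median -0.10) and from -0.68 to 0.13 in the second (median -0.0084). Among the hosts with a tract, SNHG19 and SNHG12 had positive values. The split rests on 1 RefSeq start per gene, and GENCODE 29 transcripts would divide the hosts otherwise. SNHG32 was counted with a tract, though a tract opened 0 of its 11 transcripts. GAS5 and SNHG29 were counted without one, though a tract opened 6 of 29 and 6 of 30. SNHG6 and SNHG25 had no RefSeq entry and were left out. The difference between these hosts and the rest was not tested, and 28.2% of all tested genes were called, 13.4% as lower.

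Genes beside the hosts were examined next. Of 8 tested genes that start within 1000 bases of a host on the opposite strand, 2 were called, beside 28.2% of tested genes. ZBTB37, a zinc finger gene whose start lies 800 bases from that of GAS5, fell from 93.7 ± 7.16 to 71.9 ± 5.53 CPM (SD, n = 3), -0.38 on the log2 scale (adjusted p by edgeR 0.00137), whereas GAS5 was not called. The other called gene was SEMA5A, beside SNHG18. Its control level of 0.139 ± 0.0608 CPM (SD, n = 3) lay near that of 3 counts and it passed the filter through its SOX2 siRNA libraries, so nothing is read from its call. ZNFX1, whose start is 248 bases from that of ZFAS1 and whose exons overlap it by 249 bases on the other strand, stood at 30.01 ± 0.864 and 29.2 ± 0.886 CPM (log2 fold change -0.04; adjusted p by edgeR 0.641), while ZFAS1 fell. ACAA2, an enzyme of mitochondrial fatty acid oxidation that starts 63 bases from SNHG22, had a log2 fold change of -0.01. LRRC75A, which overlaps SNHG29 by 452 exonic bases on the opposite strand, fell from 6.19 ± 0.125 to 2.42 ± 0.410 CPM (log2 fold change -1.36; adjusted p by edgeR 7.13e-07) beside a level of SNHG29 that overlapped between groups. Of 13 tested genes whose exons overlap those of a host, 3 were called, beside 28.2% of tested genes. These were LRRC75A, MYO5B and SEC14L1. SEC14L1 shares 460 exonic bases with SNHG20 on the same strand. It had a log2 fold change of -0.14 (SE 0.0376; adjusted p by edgeR 0.00925), whereas SNHG20 was not called. Differences between a host and its neighbour were not tested. With small RNA genes left aside, exons of 14 hosts overlap an opposite-strand gene and those of 6 a same-strand gene. Their values are uncertain to that extent.

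Other long non-coding genes gave a point of comparison. Of 2122 tested long non-coding genes outside the family, 14.2% were called, 9.05% lower and 5.14% higher, and their median log2 CPM was 0.33 against 4.22 for the hosts. Of 13724 tested protein-coding genes 32.8% were called, at a median log2 CPM of 4.80.

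Next came the proteins that bind and assemble snoRNAs. Of 21 tested genes, 4 were called (19.0%, beside 28.2% of all tested and 32.8% of tested protein-coding genes), 2 higher and 2 lower, with a median log2 fold change of -0.04. NOP10, a core protein of H/ACA particles, rose from 51.98 ± 2.704 to 60.4 ± 5.20 CPM (SD, n = 3), 0.21 on the log2 scale (adjusted p by edgeR 0.0147), and ZNHIT3, an assembly factor of box C/D particles, had a log2 fold change of 0.16. NOLC1, the nucleolar and Cajal body chaperone Nopp140, and COIL, the Cajal body protein coilin, fell by 0.14 on the log2 scale each. The box C/D methyltransferase FBL and the H/ACA pseudouridine synthase DKC1 were not called, at -0.04 and 0.06. The count fell to 1 without control replicate 2, and to 2 without control replicate 1, SOX2 siRNA replicate 1 or SOX2 siRNA replicate 2.

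Factors of NMD, which degrades many host transcripts, were called in 7 of 20 cases (35.0%, near the 32.8% of protein-coding genes), 2 higher and 5 lower, with a median log2 fold change of -0.04. PNRC2, an adaptor to decapping, rose from 180 ± 6.09 to 225 ± 11.1 CPM (SD, n = 3), 0.33 on the log2 scale (adjusted p by edgeR 1.04e-05). EIF4A3 and RBM8A, core proteins of the exon junction complex, fell by 0.23 and 0.18 on the log2 scale, and NBAS and UPF2 by 0.14 and 0.13. The central helicase UPF1 was not called, at -0.08. The count was 3 without control replicate 2 and 4 without SOX2 siRNA replicate 3.

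Of 10 transcripts known to respond to NMD, 2 were called (20.0%, beside the same 32.8%). The stress transcription factor ATF3 fell from 8.63 ± 0.804 to 5.48 ± 0.808 CPM (SD, n = 3), -0.66 on the log2 scale (adjusted p by edgeR 2.97e-04) and ATF4, the effector of the integrated stress response, rose by a log2 fold change of 0.12. GADD45B and GADD45A were not called, at -0.34 and 0.14. The median of the list was 0.05 on the log2 scale. The count was 1 without control replicate 2 or 3, or without SOX2 siRNA replicate 2 or 3.

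A further list held genes that host snoRNAs and also encode proteins. Of 21 such genes outside the ribosomal proteins, each with a snoRNA inside its span in RefSeq, 2 were called (9.52%, beside 32.8%), both higher; that difference was not tested. TOMM20, a receptor of mitochondrial protein import, rose from 269 ± 8.24 to 329 ± 13.7 CPM (SD, n = 3), 0.30 on the log2 scale (adjusted p by edgeR 1.47e-05), and the translation factor EIF4G2 by a log2 fold change of 0.15. The nucleolar protein gene NCL and the translation elongation gene EEF2, at -0.05 and -0.04, were not called. The count was 4 without SOX2 siRNA replicate 1. NOP56 and DKC1 stand both in this list and among the snoRNA-binding proteins.

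Ribosomal protein genes, which share the TOP tract and of which 29 hold a snoRNA in RefSeq, were called in 18 of 79 cases (22.8%, beside 32.8%), 13 higher and 5 lower, with a median log2 fold change of 0.0094. RPL34, RPL9, RPL13 and RPL15 had log2 fold changes of 0.31, 0.21, 0.19 and 0.16, and RPL12 of -0.16. Ribosomal protein genes have many processed copies in the genome, so single values are uncertain. The count fell to 9 without SOX2 siRNA replicate 2.

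**Figure D4:**
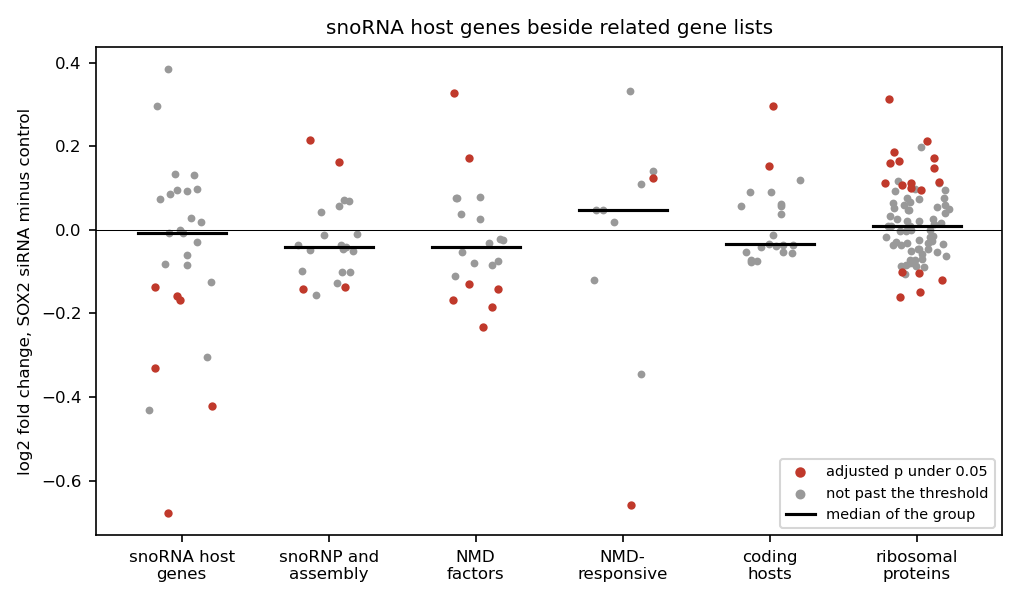
Log2 fold change (SOX2 siRNA minus control) of each tested snoRNA host gene and of the tested genes in 5 related lists, with red points for an adjusted p under 0.05, grey points for the rest and a black line at each median. The 6 medians lie between -0.04 and 0.05, and the red host genes all lie below 0, while each other list except the coding hosts has red points on both sides.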

How the data were processed

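Messenger RNA of 6 PA1 libraries, 3 per group, was made into libraries with a KAPA mRNA HyperPrep kit, per the labels' protocols. The authors deposited a table of whole-number counts, with gene symbols as rows and the 6 libraries as columns. The submitters' processing notes name bcl2fastq 2.20.0, STAR 2.7.3a, Salmon 0.14.1, DESeq2 1.28.1 and GRCh38.p13, without saying which made the counts; annotation and use of strand are not given in the sources used here. If Salmon made them, they are rounded estimates.

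Genes were kept by filterByExpr (minimum count 10), scaled by TMM and tested with edgeR 4.0.16 (quasi-likelihood F-test, robust, R 4.3.3) on group over all 17592 kept genes, with Benjamini-Hochberg adjustment and a threshold of 0.05 on the adjusted p. SEs and 95% intervals come from that fit. Its calls, but not its SEs or intervals, were checked on simulated counts with changes larger than that of any tested host. Alternatives used DESeq2 1.42.0 and limma 3.58.1, other scalings and filters, the replicate number as a block, and each library left out. GENCODE 29 gave exon lengths, overlaps and positions; 25 hosts matched by symbol and 5 by gene ID. RefSeq gave starts and nested snoRNAs. Members, lists and tests were chosen with earlier results of these data known.

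Named genes were SOX2, all hosts (in full for called hosts, GAS5, ZFAS1, DANCR, SNHG1, SNHG3 and the 4 highest per length) and, from each related list, the called genes with the 5 smallest p-values. Others, such as neighbours, SNORD3D, FBL, UPF1, NCL, EEF2 and GADD45A, were chosen after their values were seen. Intervals cover spread between libraries; counts without molecular identifiers are not independent molecules, and floors cover counting error only. No library was left out.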

Additional observations from a re-analysis of the deposited data

How the results depend on the processing

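DANCR, SNHG26, ZFAS1 and SNHG5 stayed lower and called under all 15 alternatives, and no called host changed sign. Of 404 values of single hosts, 13 lost the call (SNHG4 and SNHG22) and 5 gained one (SNHG16, SNHG17 and SNHG19). The number of called hosts was 6 with the replicate block, 4 with DESeq2's Wald test and 4 to 7 when one library was left out. Over the whole table calls were 4964, 5177 with the replicate block (4829 shared), 3923 with DESeq2 and 3760 to 4863 with one library left out. Same-numbered libraries had correlations of 0.11, -0.0059 and 0.0017 after group means were removed, within the range of -0.15 to 0.15 for different numbers, so the numbers were not taken as pairs.

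DESeq2 called 2 snoRNA-binding or assembly genes against 4, and upper-quartile scaling 5 coding hosts against 2. Leaving one library out gave 1 to 3 snoRNA-binding genes, 3 to 5 NMD factors, 1 to 2 NMD-responsive transcripts, 2 to 4 coding hosts and 9 to 20 ribosomal protein genes. The cause was not tested, apart from the fewer samples. SOX2 ranged from -2.32 to -2.25. Depth limits SNHG9, SNHG21, SNHG22, SNHG25 and SNHG31, with under 100 counts in each library.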
